A study of Mus musculus with 6 samples.

Results

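The genes described here are Kdm6b and 6 other JmjC-domain histone demethylases: Kdm6a, Kdm3a, Kdm4a, Kdm4c, Kdm5b and Kdm2b. They were followed in cultured dermal fibroblasts of the mouse, connective-tissue cells that make the matrix of skin, after exposure to interleukin-1 (IL-1). Their probes were found by the gene name in the array files, which use the older names Jmjd3, Utx, Jmjd1a, Jmjd2a, Jmjd2c, Jarid1b and Fbxl10. This gave 16 probes of 41174 non-control probes, and 7 genes, against 22210 genes measured in all. The set was chosen by the measured log2 ratios of Kdm6b at these times, together with its relatives, so the values of its members at 1, 2 and 4 h are given as a description, without a test.

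The cells were C57BL/6 dermal fibroblasts grown in DMEM with serum and antibiotics. They received 20 ng/ml IL-1 for 1, 2 or 4 h, and untreated cells of the same strain were the 0 h control. Each of 6 Agilent 2-colour arrays carried the RNA of 1 treated time, labelled with one dye, beside untreated RNA labelled with the second. The treated RNA was in Cy5 on replicate 1 and in Cy3 on replicate 2 of each time. The labels do not say which form of IL-1 was used, whether the cells were a line or freshly isolated, or how many animals they came from. The replicates are a dye swap, taken here to be of the same RNAs, so a time point counts as 1 sample, without biological replication. All values below are log2 ratios of treated over untreated RNA on the same array unless another scale is named. A time mean is followed by ± and the distance of either orientation from that mean, which is read as technical spread. Arrays of the same orientation deviated together across genes, with correlations of 0.781 to 0.855 between times. The distance thus holds a part that repeats between times and is not the error of the time mean. In a bulk sample, fewer cells expressing a gene and less RNA per cell cannot be told apart.

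JmjC-domain demethylases are oxygenases that use iron, 2-oxoglutarate and oxygen to remove methyl groups from lysines of histones. Kdm6b and its relative Kdm6a remove the methylation of lysine 27 of histone H3, a mark of silenced genes that the Polycomb complex PRC2 deposits. Kdm6b is known as an early gene of inflammatory stimulation in macrophages. Kdm3a acts on methylated lysine 9 of H3, as do Kdm4a and Kdm4c, which also act on lysine 36. Kdm5b removes the lysine 4 methylation found at active promoters, and Kdm2b recruits a variant of Polycomb complex PRC1 to unmethylated CpG islands.

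Promoter sequence was held for 6 of the 7 members, as 12 annotated starts in RefSeq on GRCm38.p6, some of which overlap. Kdm6b had no entry. The 250 bases before each start were searched on both strands for motifs of factors that act downstream of IL-1 or in low oxygen. These were the kB motif bound by NF-kB, the AP-1 motif TGANTCA, the cAMP response element TGACGTCA and the hypoxia core ACGTG. The matches below are shown because these members, unlike Kdm6b, stayed within a narrow range after IL-1. Capitals mark the motif, and each line is written 5′ to 3′ in the direction of the gene.
Kdm2b, kB motif, minus strand of chr5:122988509-122988534: agtggtggGGGAGTCTCCttaggaag
Kdm4a, AP-1 motif, minus strand of chr4:118180219-118180241: tggagatcTGAGTCAgcctctga
Kdm3a, AP-1 motif, minus strand of chr6:71632847-71632869: gtcgtgggTGACTCAgggaggcg
Kdm4c, hypoxia core, plus strand of chr4:74251819-74251839: cagcggtcACGTGggggcgcg
Kdm6a, hypoxia core, plus strand of chrX:18162541-18162561: caaaggtcACGTGaggcgagg
Kdm5b, hypoxia core, plus strand of chr1:134559941-134559961: aatatatgACGTGattgatgg

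A kB match was found in 1 of the 12 member promoters (8.33%), against 3.9% of all 32851 promoter entries. The AP-1 motif was found in 2 of 12 (16.7%), against 6.75%. The hypoxia core was found in 3 of 12 (25%), against 16.6%. The cAMP response element, which shares only the letters ACGT with that core, was found in 0 of 12, against 1.55%. With 12 partly overlapping entries these shares rest on 1 to 3 promoters each, and a match describes letters in a window, not a bound site.

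The arrays had median processed intensities of untreated RNA between 349 and 406 on the scanner's scale. All 10 fibroblast markers on the list, among them Col1a1, Col3a1, Dcn and Pdgfra, were well above background in untreated RNA on all 6 arrays. The background flag is permissive, since up to 14.3% of the 314 negative control spots carried it in Cy3 on 1 array. Of markers of other skin cells, 5 of 6 keratinocyte, 5 of 6 leukocyte, 3 of 5 endothelial, 2 of 5 melanocyte and 5 of 5 pericyte and smooth-muscle genes passed the filter, while Cdh1, Itgam, Pecam1, Cdh5, Tyr, Mlana and Tyrp1 did not. Those that passed differed in brightness. The median intensity in untreated RNA was 28275 for Lyz2, 28876 for Cspg4 and 3079 for Krt10. It was 191 for Vwf and 80 for Dct, and 3732 for the fibroblast marker Pdgfra. Col1a1, Col1a2 and Vim were saturated in 6 channels each, so no ratio is read from them. None of the other measured markers differed 2-fold in both orientations at any time. By the mean-response test described below, 2 of 5 leukocyte and 2 of 5 pericyte and smooth-muscle genes rose and 1 of 5 keratinocyte genes fell. Of the 10 fibroblast genes 2 rose and 1 fell. Dcn rose by 0.46 and Fbn1 by 0.20, though Fbn1 was below 0 in Cy3 at every time, and Col3a1 fell by 0.25. Among all genes 10.5% rose and 10.8% fell. The part of other skin cells in the results was not tested. The direction of every ratio rests on the dyes in the labels: the deposited log2 ratios of each array match the scanner intensities of its dye-swap partner, for 100% of spots within 0.001, and if the scanner files rather than the deposited columns are the exchanged ones, every sign here turns.

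Kdm6b was higher 1 h after IL-1, was slightly above untreated at 2 h and was back at the untreated level at 4 h. Its single probe lies in Kdm6b on chromosome 11 at 69125711 to 69125855, as the array files give it. That span of 145 bases is longer than the 60-base probe. No header or label names the build behind these coordinates.

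The processed intensity of Kdm6b in treated RNA at 1 h was 11503 in Cy5 and 9762 in Cy3, against 4726 and 4336 in untreated RNA on the same arrays. At 2 h it was 5181 and 4967, against 4038 and 4291. At 4 h it was 5248 and 4503, against 5436 and 4647. Both 1 h values lay above all 6 untreated values, which ran from 4038 to 5436, and all values at 2 h and 4 h lay within that range. The probe was well above background in both dyes on all 6 arrays and was saturated on none.

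**Figure D1:**
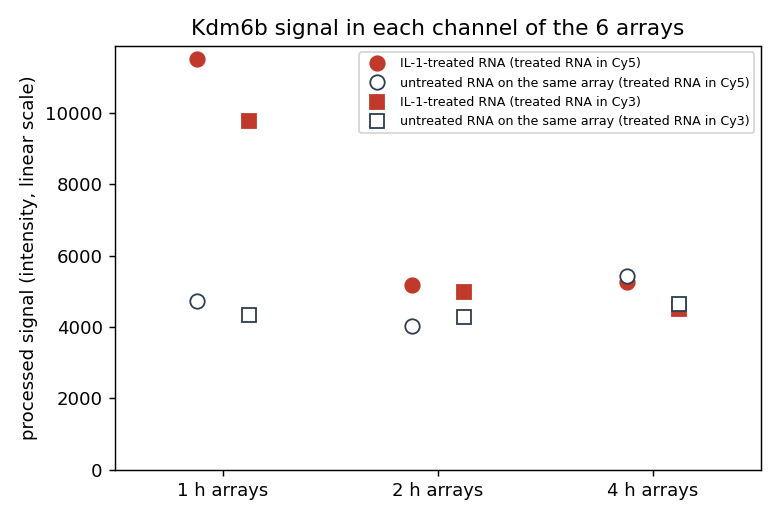
Processed intensity of the Kdm6b probe on each of the 6 arrays, in treated and untreated RNA, by hours after IL-1; the scale is the scanner's. The 1 h treated values, 11503 and 9762, stand above the untreated range of 4038 to 5436, and the 2 h and 4 h treated values lie inside it.

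After background correction and normalization within arrays, Kdm6b had log2 ratios of 1.20 and 1.05 at 1 h in the Cy5 and Cy3 orientations. They were 0.34 and 0.16 at 2 h, and -0.02 and -0.07 at 4 h. The time means were 1.13 ± 0.076 at 1 h (2.18-fold), 0.25 ± 0.093 at 2 h (1.19-fold) and -0.05 ± 0.024 at 4 h (0.967-fold). The orientations did not overlap between any pair of times, and the order 1 h, 2 h, 4 h was the same in both. For scale, the distance of an orientation from the time mean had a median of 0.062 and a 95th percentile of 0.197 over all genes and times. The difference from untreated was above that percentile at 1 h and 2 h and below the median at 4 h. As that distance is not the error of a time mean, this is a description of size only.

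The fall from 1 h to 2 h was larger than the fall from 2 h to 4 h. Kdm6b was 0.86 higher at 1 h than at 2 h in one orientation and 0.89 in the other, a difference of 1.83-fold. From 2 h to 4 h the differences were 0.37 and 0.23, or 1.23-fold. Between 1 h and 4 h they were 1.22 and 1.12, or 2.26-fold. With scaling by the median alone in place of loess, the 1 h mean was 0.99 and the 2 h mean 0.10, with the orientations then far apart, at 1.80 and 0.19 for 1 h. Over the other settings tried, including those that use 1 orientation alone, the 1 h mean ran from 1.05 to 1.23.

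Among all 22210 genes, ranked from the highest ratio, Kdm6b stood at place 45 at 1 h, 599 at 2 h and 16259 at 4 h. By its excess at 1 h over 4 h it stood at place 17. With every sign turned, as the doubt over the exchanged arrays allows, these would be places from the lowest ratio instead, and Kdm6b would stand at place 22166 from the highest at 1 h, 21612 at 2 h and 5952 at 4 h. A ratio of at least 2-fold in both orientations was met by 1 of the 7 members at 1 h, Kdm6b, against 0.212% of all genes. The same was met by 0 members at 2 h (0.18% of all genes) and 0 at 4 h (0.135%). Since Kdm6b was chosen for this response, nothing is read from these shares. The same bound downward was met by 0.009% of all genes at 1 h, by 0% at 2 h and 4 h, and by no member.

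The other members moved little. Of their 15 probes 12 passed the background filter, at least 1 for each gene. Their time means ran from -0.25 to 0.14, or 0.844-fold to 1.10-fold, and single arrays from -0.31 to 0.24. Of the 36 combinations of probe and time, 18 had the same sign in both orientations. No probe reached a log2 ratio of 0.5 in either direction in both orientations at any time, against 0.581% of all genes upward and 0.054% downward at 1 h. At 2 h those shares were 0.59% and 0.113%, and at 4 h 0.5% and 0.117%.

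**Figure D2:**
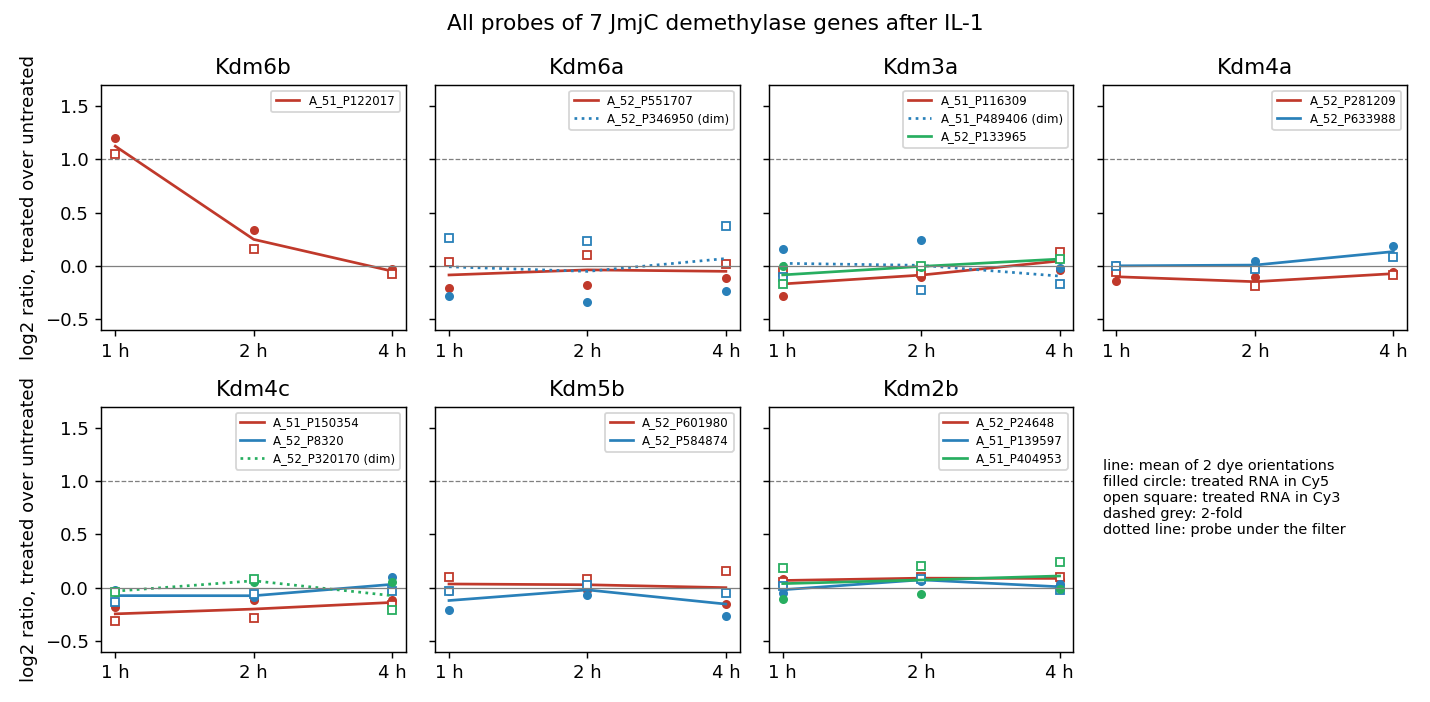
Log2 ratio of treated over untreated RNA for all 16 member probes, at 1, 2 and 4 h. Points are single arrays, by dye orientation, and dotted lines mark the 3 probes under the filter. Kdm6b at 1 h, with 1.20 and 1.05, stands apart from every value of the other members. Their kept probes run from -0.31 to 0.24, and the widest probe under the filter, of Kdm6a, from -0.34 to 0.38.

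Kdm6a, also called Utx, is the X-linked relative of Kdm6b that acts on the same methylated lysine. Its kept probe had log2 ratios of -0.21 and 0.04 at 1 h, then -0.18 and 0.11 at 2 h and lastly -0.12 and 0.02 at 4 h. The Cy5 orientation was below 0 and the Cy3 orientation above 0 at every time, so the sign followed the dye. The time means were -0.08 ± 0.12, -0.04 ± 0.14 and -0.05 ± 0.065, each smaller than its spread. The processed intensity in treated RNA ran from 369 to 464 and in untreated RNA from 389 to 502, so the groups overlapped. The enzymes of this pair thus had ratios of 2.18-fold for Kdm6b and 0.943-fold for Kdm6a at 1 h.

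Kdm3a, or Jmjd1a, takes methyl groups from mono- and dimethylated lysine 9 of H3, and its transcription is known to be raised by hypoxia-inducible factor. Its brightest probe had log2 ratios of -0.29 and -0.05 at 1 h, then -0.10 and -0.07 at 2 h and lastly -0.03 and 0.13 at 4 h. A second probe of the same transcript had 0.00 and -0.17, then -0.01 and 0.00, then 0.07 and 0.06. Both probes had their lowest time mean at 1 h, at -0.17 ± 0.12 and -0.08 ± 0.084, and their highest at 4 h, at 0.05 ± 0.082 and 0.07 ± 0.0022. Apart from the last, each of these means was within 1.5 times its spread.

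Kdm4a, or Jmjd2a, removes trimethylation from lysines 9 and 36 of H3. Its brighter probe had log2 ratios of -0.14 and -0.06 at 1 h, then -0.11 and -0.19 at 2 h and lastly -0.06 and -0.09 at 4 h. It was below 0 on 6 of 6 arrays, with time means of -0.10 ± 0.042, -0.15 ± 0.040 and -0.07 ± 0.013. The dimmer probe differed: it had 0.00 and 0.00 at 1 h, then 0.05 and -0.03 at 2 h and lastly 0.19 and 0.08 at 4 h. Its 4 h mean of 0.14 ± 0.054 was the highest of all members but Kdm6b, while the brighter probe of the same gene was below 0 at that time. The dimmer probe is listed over 1405 bases and the brighter over 60, both on chromosome 4, and which transcripts each reads was not tested.

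Kdm4c, or Jmjd2c, has the same lysine targets as Kdm4a. Its brightest probe had log2 ratios of -0.18 and -0.31 at 1 h, then -0.11 and -0.29 at 2 h and lastly -0.12 and -0.16 at 4 h. All 6 arrays were below 0, and the time means were -0.25 ± 0.067 (0.844-fold), -0.20 ± 0.088 (0.871-fold) and -0.14 ± 0.022 (0.909-fold). Those at 1 h and 2 h were the lowest of the 13 kept member probes; at 4 h a Kdm5b probe, at -0.15, was lower. Another kept probe had -0.02 and -0.13, then -0.09 and -0.06, then 0.10 and -0.03. It was below 0 on 5 of 6 arrays, with time means of -0.07, -0.07 and 0.03. Its coordinates, 73312538 to 73312479 on chromosome 4, are listed in the order opposite to those of the other Kdm4c probes, and whether it reads Kdm4c mRNA was not tested.

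Kdm5b, or Jarid1b, removes methylation of lysine 4 of H3. Its brighter probe had -0.03 and 0.10 at 1 h, then -0.02 and 0.08 at 2 h and lastly -0.16 and 0.16 at 4 h, with a sign that followed the dye at every time. The other probe had -0.21 and -0.03, then -0.07 and 0.03, then -0.26 and -0.04. At 4 h the time means of these probes were 0.00 ± 0.16 and -0.15 ± 0.11, and the probes overlapped on single arrays.

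Kdm2b, or Fbxl10, is a demethylase that binds CpG islands through a zinc finger. Its brightest probe had 0.08 and 0.06 at 1 h, then 0.08 and 0.10 at 2 h and lastly 0.07 and 0.10 at 4 h. It was above 0 on 6 of 6 arrays, with time means of 0.07 ± 0.011, 0.09 ± 0.011 and 0.09 ± 0.013. A probe that adjoins it on chromosome 5 had a dye-dependent sign, with -0.11 and 0.19, then -0.06 and 0.21, then -0.02 and 0.24. The means of the adjoining probes were nevertheless close, the latter being 0.04, 0.07 and 0.11. The probe listed over 6715 bases upstream had -0.05 and 0.01, then 0.07 and 0.08, then 0.04 and -0.02, with time means from -0.02 to 0.07.

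Of the 13 kept member probes, 1 was above 0 on all 6 arrays (Kdm2b) and 2 were below 0 on all 6 (Kdm4a and Kdm4c). Over all genes, 10.8% were above 0 on all 6 arrays and 9.8% below. Kept probes passed on background in at least 1 condition, so these counts describe the probes and are no evidence about the family.

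The genes whose 6 ratios were closest to those of Kdm6b, by the root mean square difference over the 6 arrays, were Atf3 (0.173), Bhlhe40 (0.174), Egr3 (0.178), Junb (0.223), Gem (0.244) and Socs1 (0.277). These genes were picked by their closeness to Kdm6b, so that closeness is no further result. Atf3 is a stress-induced bZIP transcription factor, and its time means were 1.18, 0.44 and -0.03. At 2 h Atf3 was above Kdm6b, with 0.37 and 0.52 in the Cy5 and Cy3 orientations against 0.34 and 0.16. Bhlhe40, a repressor that also belongs to the circadian system, had 1.09, 0.08 and -0.12. Egr3, a zinc-finger factor of the immediate early class, had 1.01, 0.11 and -0.24. Junb, an AP-1 subunit, had 1.33, 0.41 and 0.22, and was the one of the 6 that stayed above untreated in both orientations at 4 h by more than 0.1. Gem, a small GTP-binding protein, had 0.74, 0.12 and -0.15, and Socs1, an inhibitor of cytokine receptor signalling, had 0.70, 0.17 and 0.01. Promoter entries were held for Atf3, Junb and Socs1, and 0 of these 3 held any of the 4 motifs within the window.

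**Figure D3:**
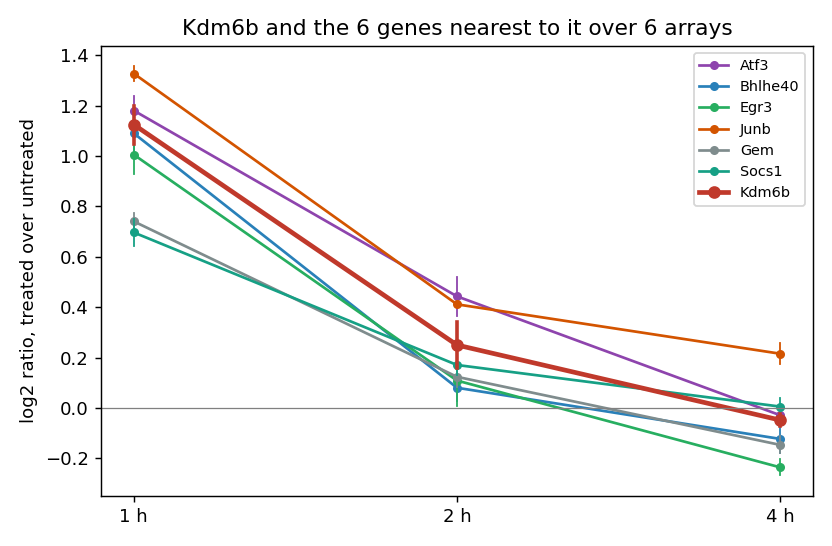
Time means of the log2 ratio at 1, 2 and 4 h for Kdm6b and the 6 genes with the smallest root mean square difference from it over 6 arrays; bars reach to the value of each dye orientation and the axis is log2. Each is highest at 1 h, from 0.70 for Socs1 to 1.33 for Junb, and lowest at 4 h.

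Genes with related functions were taken from lists and tested for a mean response over 1, 2 and 4 h with limma, each time point counting as 1 sample, with Benjamini-Hochberg adjustment over all 22210 genes. By this test 10.5% of all genes rose and 10.8% fell, and the median of all genes was 0.00. At an unadjusted p under 0.05, 7702 of the 22210 genes passed in either direction, so unadjusted counts below are to be read beside that number. The test asks for a similar ratio at all 3 times, so a short response such as that of Kdm6b is not what it detects, and it leaves out the spread of the untreated RNA. Nothing states that the times came from separate cultures, so its p-values measure only the spread between these samples.

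The other JmjC-domain proteins had a median mean response of 0.00 over the 22 of 24 that were measured. By limma 0 rose and 1 fell, below the shares of all genes. At an unadjusted p under 0.05 the counts were 3 and 4, where 7702 of all 22210 genes passed in either direction. The 1 that fell was Jmjd1c, a relative of Kdm3a. In the Cy5 orientation it was at 0.00, -0.08 and 0.06 at 1, 2 and 4 h, and in Cy3 at -0.23, -0.17 and -0.15. Its mean response was -0.10 ± 0.026 (SE, n = 3 time points, limma adjusted p = 0.049). This call did not hold in 8 of the 16 settings, over which its adjusted p ran from 0.01 to 0.87. The highest were Riox1, a ribosomal oxygenase, at 0.11, and Hif1an, an asparagine hydroxylase that acts on hypoxia-inducible factor, at 0.06, and neither passed. Kdm5a, the nearest relative of Kdm5b, was at -0.10 (limma adjusted p = 0.067). Uty and Jmjd7 were not measured.

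PRC2, which writes the mark that Kdm6b and Kdm6a remove, had 4 of 10 measured subunits that fell and 0 that rose. Among all genes 10.8% fell and 10.5% rose. The list's counts were the same at an unadjusted p under 0.05, which 7702 of all 22210 genes passed. The list's median was -0.04. Those that fell were Suz12 at -0.13 and Rbbp7 at -0.13, and, named after their values were seen, Eed at -0.12 and the methyltransferase Ezh2 at -0.11. All 4 changes were small, and the alternative enzyme Ezh1 was at 0.02. The accessory subunit Mtf2 was at -0.005. With the scanner's processed intensities, or without the 1 h or the 2 h sample, 0 of the 10 were called.

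PRC1, the complex whose variant holds Kdm2b, had 1 of 19 subunits that rose and 2 that fell, with a median of -0.05. The shares of all genes were 10.5% and 10.8%. Over the 16 settings 0 to 3 of the subunits rose and 0 to 10 fell. Bcor, which sits in the same variant as Kdm2b, rose by 0.12, a call that held in 9 of the 16 settings. Cbx8, a chromodomain subunit that binds the mark written by PRC2, fell by 0.18 and was called in 13 of 16. The other that fell was Yaf2, at -0.10, named after its values were seen. Yaf2 was at 0.12 to 0.14 in the Cy5 orientation and at -0.43 to -0.27 in Cy3, so its sign followed the dye. Phc1 at 0.10 and Pcgf5 at -0.17 did not pass. Pcgf5 was at -0.33 and -0.45 at 4 h, its lowest time.

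The amine-oxidase demethylases, which remove methylation of lysine 4 by another chemistry than Kdm5b, and their CoREST partners had 4 of 8 members that fell and 1 that rose, with a median of -0.10. The shares of all genes were 10.8% for a fall and 10.5% for a rise. Over the 16 settings 1 to 6 of the 8 members fell. The enzyme Kdm1b fell by 0.16, while Kdm1a was at 0.00. The deacetylase Hdac2 fell by 0.27 (SE 0.024, n = 3 time points; limma adjusted p = 0.0026) and was below 0 on 6 of 6 arrays. Rcor2 fell by 0.26 and Rcor3 by 0.14, and Rcor1 rose by 0.15, with Phf21a at 0.06 without passing. The rise of Rcor1 rests on 1 dye: it was below 0 at 1 h and 4 h and 0.08 at 2 h in the Cy5 orientation, and 0.28 to 0.34 in Cy3.

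Of 15 measured subunits of H3K4 methyltransferase complexes, which oppose Kdm5b, 2 rose and 5 fell, and the median was 0.00. For this list and the next ones, the shares of all genes were 10.5% for a rise and 10.8% for a fall. Over the 16 settings 0 to 3 of the H3K4 subunits rose and 0 to 9 fell. Wdr5, a shared core subunit, rose by 0.11, but it was called in 8 of the 16 settings, with a mean as low as 0.0025. Kmt2e fell by 0.17, as did Pagr1a, and they were called in 14 and 13 of 16. Rbbp5, another core subunit, was at 0.09 without passing. Ncoa6 also fell, and is named after its values were seen. At 1, 2 and 4 h it was at -0.11, 0.01 and 0.06 in the Cy5 orientation and -0.32, -0.23 and -0.24 in Cy3. The others that fell, Kmt2e, Pagr1a, Setd1b and Dpy30, were below 0 on all 6 arrays. Among H3K9 methyltransferases, which oppose Kdm3a, Kdm4a and Kdm4c, 0 of 7 rose and 1 fell (1 and 1 at an unadjusted p under 0.05), and the median was 0.04. The one that fell was Suv39h2, at -0.12, while Ehmt1 was at 0.10, Prdm2 at 0.09 and Setdb2 at -0.02 without passing. Among H3K36 methyltransferases 1 of 6 rose and 0 fell (2 and 1 at an unadjusted p under 0.05), with a median of -0.02. The riser was Nsd2 at 0.12, called in 10 of the 16 settings. Ash1l was at 0.06, Setd2 at -0.05 and Nsd1 at -0.07. The sign of the median of each of these 3 lists turned in at least 1 of the other settings, so no direction is given for them.

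Genes that respond to low oxygen were listed because Kdm3a is known as one of their class. Of 13 measured, 7 rose by limma and 0 fell, against 10.5% and 10.8% of all genes, and the median was 0.15. At an unadjusted p under 0.05 the list's counts were 8 and 0, where 7702 of all 22210 genes passed in either direction. Vegfa, the vascular growth factor, rose by 0.77, with time means of 0.98, 0.76 and 0.55. Ndrg1 rose by 0.70 and the glycolytic enzyme Hk2, chosen after its values were seen, by 0.57. Adm and Ddit4 were at -0.03 and 0.00. Egln1 and Slc2a1, which also rose and are named after their values were seen, differed by dye. Egln1 ran from 0.34 to 0.44 in the Cy5 orientation and from -0.13 to -0.08 in Cy3. Slc2a1 ran from 0.34 to 0.56 in Cy5 and from -0.11 to 0.06 in Cy3. The others that rose, Vegfa, Ndrg1, Hk2, Pgk1 and Egln3, were above 0 on all 6 arrays. The list's median depended on dye and scaling: it was -0.03 from the Cy3 orientation alone and 0.01 with scaling by the median. The counts that rose ran from 3 to 10 and those that fell from 0 to 3 over all settings, while Vegfa and Ndrg1 passed in 16 of 16.

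**Figure D4:**
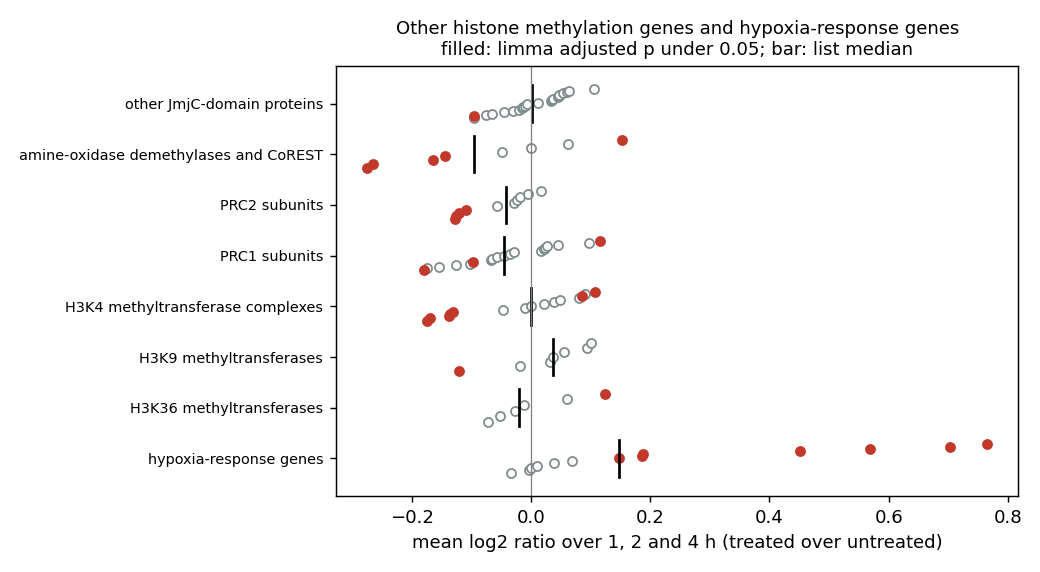
Mean log2 ratio over 1, 2 and 4 h of each measured gene in the lists of related function, with those under an adjusted p of 0.05 by limma filled and a bar at each list median. The hypoxia list reaches 0.77 for Vegfa, while the lists of histone-modifying proteins lie between -0.27 and 0.15.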

How the data were processed

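Total RNA of treated and untreated fibroblasts was hybridised to 6 arrays, 1 on each of 6 slides. The deposited scanner files hold spot intensity from Agilent Feature Extraction 7.5.1, per the file headers; the processed intensity is background-subtracted and dye-normalized by that software. The authors also deposited a value table of log2 ratios.

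Mean intensities underwent normexp background correction with an offset of 50, then loess within each array, with controls at weight 0, in limma 3.58.1 (R 4.3.3). Outlier-flagged and control spots were removed. Of 41174 probes, 30637 passed the scanner's background flag on all arrays of some condition, and 57 of these lacked a value on some array. RefSeq accessions on GRCm38.p6 named 22072 probes, and file names the rest. The brightest kept probe stood for each gene name. Kdm4a and Kdm4c, with probes under an older and a current name, therefore stand more than once among the 22210 genes. Of these genes 15455 carried a RefSeq symbol. List genes are named by their current symbols.

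The replicate numbers mark dye orientation per the labels, and both arrays of a time were averaged to 1 sample. Across 22210 genes, arrays sharing a number deviated together from their time means (correlations of 0.781 to 0.855), so the number was also tried as a block. The mean response was tested against 0 by lmFit with eBayes in a two-sided test, calling genes whose Benjamini-Hochberg adjusted p was under 0.05, and the script was tested on simulated data. The number of arrays limits the precision.

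The members and lists were chosen with earlier results of these data known. Named were all members, the 2 highest and 2 lowest genes of each list by mean response, and the 6 genes most like Kdm6b. Further list genes behind a count are named after their values were seen.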

Additional observations from a re-analysis of the deposited data

Results flagged for a closer look

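Some genes had opposite signs at different times, with both orientations agreeing at each. These differences between time points were not tested, since each time is 1 sample. Kdm6b was 1.17 higher on the log2 scale at 1 h than at 4 h and 0.298 higher at 2 h than at 4 h, being above untreated at 1 h and 2 h and below it on both arrays at 4 h. Kdm7a, a JmjC demethylase outside the set of members, had time means of -0.06, 0.08 and 0.16. Its 1 h value minus its 2 h value was -0.139, and its 1 h value minus its 4 h value was -0.22. Tyw5, a JmjC hydroxylase that acts on transfer RNA, ran the other way, with 0.07, -0.02 and -0.08. Its 1 h value lay 0.0889 above the 2 h value and 0.148 above the 4 h value. Kdm5c, an X-linked relative of Kdm5b, had -0.04, 0.01 and -0.04. The difference was -0.0465 between 1 h and 2 h and 0.0492 between 2 h and 4 h, below the median spread between orientations of 0.062.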

How the results depend on the processing

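Kdm6b at 1 h ran from 0.99 to 1.23 over all settings, at 2 h from 0.10 to 0.34 and at 4 h from -0.13 to -0.02. With scaling by the median it was 0.99, 0.10 and -0.13. The genes at least 2-fold higher then numbered 24, 21 and 13 at the 3 times, 1126 genes rose and 5754 fell in the mean response, and 6 other JmjC proteins were called, with the median of all genes at -0.03. With an offset of 16, 47 genes were 2-fold higher at 4 h and 0 JmjC proteins were called. Both the scanner's processed intensities and the deposited table gave 82 genes at 2 h, 57 at 4 h, 750 risers, 587 fallers and 0 JmjC proteins. Without the filter 0 JmjC proteins were called. With trend and robust variances, and without the 4 h sample, 2 were. Without the 2 h sample, 483 genes rose, 361 fell and 0 JmjC proteins were called. With the 6 arrays unaveraged and dye orientation as a replicate block, 3317 genes rose and 3347 fell, and 3 JmjC proteins were called in place of 1. With 1 orientation alone the 2-fold counts were 53 to 72 at 1 h, 42 to 67 at 2 h and 42 to 50 at 4 h, 3283 to 4744 genes rose, 3551 to 4281 fell and 6 to 8 JmjC proteins were called. Kdm6b was then 1.05 to 1.20, 0.16 to 0.34 and -0.07 to -0.02. Rcor1 was 0.31 without replicate 1 and -0.0023 without replicate 2, and Adm -0.32 and 0.25. The values of the other members ran from -0.45 to 0.30 over 8 settings, and none reached 0.5 in both orientations. A block for slide or scan was not run, as each slide holds 1 array. Causes of these shifts were not tested.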

Other observations

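3 member probes were not well above background in any condition on all its arrays and have no ratio here. For Kdm6a the second probe was well above background in untreated RNA on 1 of 6 arrays and in treated RNA on 0 of 6. For Kdm3a the counts were 4 of 6 and 3 of 6, and for Kdm4c 3 of 6 and 3 of 6.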
